A study of Homo sapiens with 6 samples.

Results

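The 10 genes described here are markers of the mesenchymal state and of stemness in glioblastoma: CD44, VIM, NES, SOX2, SOX9, CHI3L1, ZEB1, ZEB2, SNAI2 and TWIST1. They were found by gene symbol among the 58174 human gene identifiers of the count tables, and all 10 had 1 identifier there. The table of spike-in normalized counts lists 23026 genes and holds 9 of the 10, with SOX2 missing from it. The measurements come from T98G, an established human glioblastoma cell line, infected with a lentivirus carrying a short hairpin RNA. In 3 libraries (1A, 1B and 1C) the hairpin was a control (shControl), and in the other 3 (1A, 1B and 1C) it targeted the protein kinase DYRK1A (shDYRK1A). All cells of both groups were selected with puromycin, and a constant spike of Drosophila Kc167 cells was added to equal numbers of them before RNA extraction, so that fly reads could set the scale. Values of a group are given in the order 1A, 1B, 1C throughout. Every library is from 1 cell line, and the labels do not say whether the 3 libraries of a group are separate infections, so p-values measure the spread between these libraries only.

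Mesenchymal glioblastoma cells carry features of connective tissue cells. Epithelial-mesenchymal transition (EMT) factors such as ZEB1, ZEB2, SNAI2 (Slug) and TWIST1 bind E-box sequences and are best known for repressing epithelial genes, and the glycoprotein CD44, the filament protein vimentin (VIM) and the secreted chitinase-like protein CHI3L1 (YKL-40) are widely used to mark the state. Stem-like glioma cells are commonly recognised by the filament protein nestin (NES) and by the transcription factors SOX2 and SOX9, which belong to the same family and act in neural progenitors. The comparison asks how the RNA of these genes differed when DYRK1A was silenced, relative to the shControl cells. Other effects of the hairpin cannot be told apart from the loss of DYRK1A in this design.

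Human gene counts per library were between 33708297 and 42154438. The size factors of the spike-in were 0.821 to 1.03 in shControl and 1.06 to 1.21 in shDYRK1A, so a spike-in normalized count, which is the raw count divided by this factor, scales with RNA per cell if the mix with fly cells did not vary. With that scale the median log2 fold change over the 9697 genes tested was -0.40, and trimmed mean of M-values (TMM) scaling over the human genes moved it to 0.00. Each member is therefore given on both scales. In these bulk samples fewer cells of a kind and less RNA per cell cannot be told apart. The library shDYRK1A 1B had the fewest counts and the most unmapped reads (15.6%, against 8.44 to 11.9% in the others). DYRK1A, the target of the hairpin, fell in shDYRK1A, with a log2 fold change of -0.73 ± 0.15 (SE) and an adjusted p of 5.33e-06 in edgeR, and of -0.34 with an adjusted p of 0.000591 under TMM scaling. On the spike-in scale 60.2% of its shControl level was left, and 1149 of the 9697 genes had a lower log2 fold change.

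T98G cells expressed 9 of the 10 members at levels that spanned 3 orders of magnitude. Levels between genes were compared as CPM, the counts per 1000000 human counts, per kb of merged exon. In shControl, VIM stood at 375 ± 8.64 (SD, n = 3) and CD44 at 146 ± 7.07. The transcription factors followed, with SNAI2 at 19.2 ± 1.23, SOX9 at 11.5 ± 0.127, TWIST1 at 8.56 ± 0.580 and ZEB1 at 5.92 ± 0.285. VIM and CD44 were also among the most counted genes of the line, in places 34 and 55 by CPM in shControl. CHI3L1 stood at 1.28 ± 0.207, NES at 0.353 ± 0.0106 and ZEB2 at 0.252 ± 0.0103 CPM per kb. In shControl no library of any member overlapped with the libraries of the next member in this order. In shDYRK1A SOX9 and TWIST1 changed places, with every TWIST1 library (10.6 to 11.0) above every SOX9 library (8.56 to 9.62), and the libraries overlapped between ZEB1 and CHI3L1 and between NES and ZEB2. The 2 last places above SOX2 depend on the exon length used, since per kb of the longest transcript ZEB2 (0.659) stood above NES (0.353) in shControl. The order of ZEB1 and CHI3L1 in shDYRK1A depends on it too. Per kb of the longest transcript, every CHI3L1 library there (6.84 to 7.21) stood above every ZEB1 library (5.11 to 6.74).

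**Figure D1:**
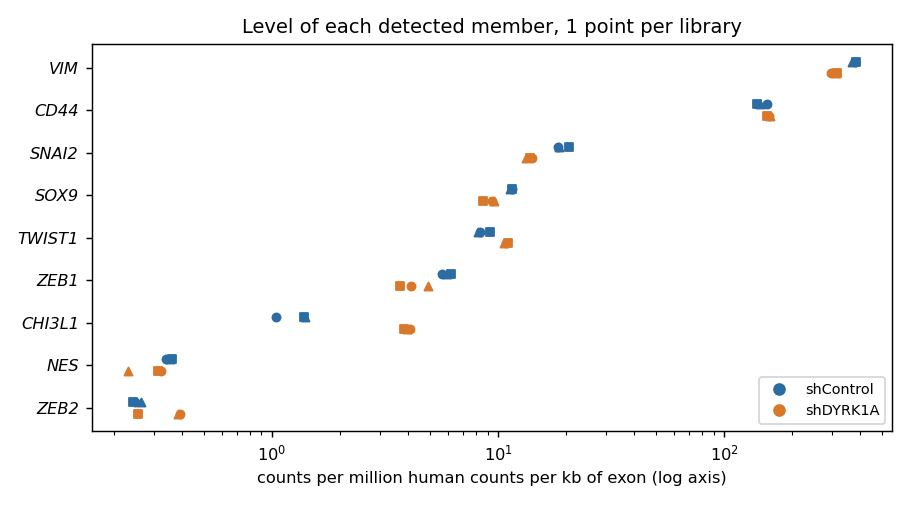
Level of the 9 detected members as CPM per kb of merged exon, on a log axis, with 1 point per library (circle 1A, square 1B, triangle 1C; blue shControl, orange shDYRK1A). VIM and CD44 lie far above the transcription factors, and NES and ZEB2 lie at the bottom. With this exon length CHI3L1 moves from below ZEB1 to its level in shDYRK1A.

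SOX2, a core factor of neural stem cells, was not detectable at this depth in either group. The controls had 0, 0 and 2 raw counts and the shDYRK1A libraries 0, 1 and 0, a total of 3 reads over 6 libraries. A count of 0 allows up to 3 counts in a library, which is 0.0712 to 0.0774 CPM in the libraries with 0 reads. This limit covers counting error only and does not apply to shControl 1C and shDYRK1A 1B, which had reads. No fold change is given. The gene (ENSG00000181449, GRCh38 chromosome 3, 181711924 to 181714436, plus strand) lies inside the long noncoding gene SOX2-OT, which had 15 reads over the 6 libraries. Of the stemness markers on the list, NES and SOX9 were therefore the ones that could be followed. The glial filament gene GFAP, a marker of astrocytic tumours, was also nearly absent, with 9 reads in all. Other glial markers were counted, and the 12 astrocyte and glial markers listed summed to 330.3 to 358.3 CPM in shControl.

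Under spike-in scaling, 6 members passed the filter of a mean above 10 normalized CPM, namely CD44, VIM, SOX9, ZEB1, SNAI2 and TWIST1. Of these, 5 fell (an adjusted p under 0.05 by the quasi-likelihood test of edgeR) and 0 rose, where 63.4% of the 9697 genes fell and 1.08% rose. With a log2 fold change beyond 0.7 as well, the definition of a called gene here, 4 members were lower (VIM, SOX9, ZEB1 and SNAI2) and 0 higher, against 14.3% and 0.278% of all genes. The other 3 detected members, NES, CHI3L1 and ZEB2, had means of 1.82, 8.30 and 7.39 normalized CPM and were tested over the 17623 genes that edgeR's filterByExpr keeps, a filter applied to them after their levels were seen. There 44.1% of all genes fell and 1.91% rose, and 14.3% and 1.24% also passed the fold threshold. NES was called lower, CHI3L1 was called higher, and ZEB2 did not pass the test.

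**Figure D2:**
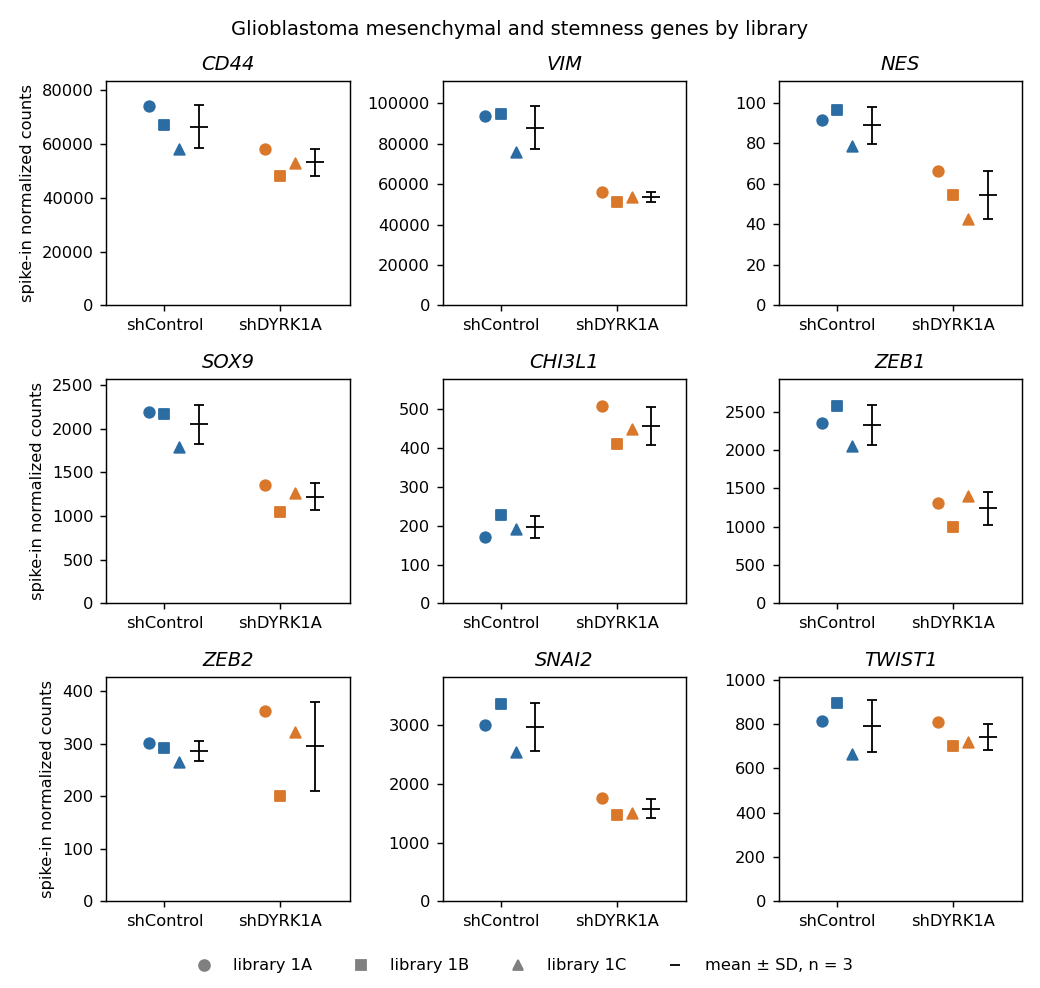
Spike-in normalized counts of the 9 detected members in each library (circle 1A, square 1B, triangle 1C), with the mean ± SD of the 3 libraries of a group beside them and axes that start at 0. The groups are apart for VIM, NES, SOX9, CHI3L1, ZEB1 and SNAI2, with CHI3L1 alone higher in shDYRK1A, and they overlap for CD44, ZEB2 and TWIST1.

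The intermediate filament gene VIM (ENSG00000026025, GRCh38 chromosome 10, 17228259 to 17237593, plus strand) codes for vimentin, the main filament of mesenchymal cells. Normalized counts of VIM were 93492, 94463 and 75696 across the controls and 56072, 50891 and 53518 across the shDYRK1A libraries. Every shDYRK1A library lay below every shControl library. The log2 fold change was -0.72 ± 0.13 (SE, adjusted p = 1.47e-07, edgeR), which leaves 60.9% of the shControl level. VIM fell under TMM scaling too, by 0.31 on the log2 scale (adjusted p = 0.000319). As a share of human counts it went from 1935 ± 44.6 CPM (SD, n = 3) to 1589 ± 52.4 CPM. Its value sat close to the fold threshold, and without shDYRK1A 1B, shControl 1A or shControl 1B it was -0.68, -0.67 and -0.66. Exons of other genes on the opposite strand cover 24.4% of its exon bases, among them VIM-AS1, which had 391 reads in all. The libraries were made with a stranded kit.

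NES (ENSG00000132688, GRCh38 chromosome 1, 156668763 to 156677397, minus strand) codes for nestin, a filament protein of neural progenitors. It was a rare transcript in T98G, with 91.3, 96.5 and 78.9 normalized counts across the controls and 66.2, 54.7 and 42.8 across the shDYRK1A libraries. The groups did not overlap. NES fell by 0.71 on the log2 scale (SE 0.25, adjusted p = 0.0151, edgeR), and under TMM scaling its log2 fold change was -0.34 with an adjusted p of 0.166. Single libraries decided the call, since the adjusted p was 0.0566, 0.0814 and 0.142 without shControl 1A, shControl 1B or shDYRK1A 1C. The raw counts behind it were 52 to 85 per library.

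Among the EMT factors, SNAI2 and ZEB1 fell together by nearly the same amount. SNAI2 (ENSG00000019549, on chromosome 8, minus strand), the zinc finger repressor also called Slug, had 3005, 3350 and 2535 normalized counts across the controls. With DYRK1A silenced it had 1760, 1463 and 1505, all below the lowest shControl library. The log2 fold change was -0.91 ± 0.14 (SE, adjusted p = 5.52e-09, edgeR), so 53.2% of the shControl level was left. Under TMM scaling SNAI2 fell by 0.51 on the log2 scale (adjusted p = 2.54e-05). Only 477 of the 9697 genes had a lower spike-in log2 fold change.

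ZEB1 (ENSG00000148516, GRCh38 chromosome 10, 31318495 to 31529814, plus strand) codes for a zinc finger and homeodomain repressor of CDH1, the epithelial cadherin gene. Normalized counts of ZEB1 were 2346, 2569 and 2055 across the controls and 1313, 999.7 and 1406 across the shDYRK1A libraries, again without overlap. ZEB1 fell by 0.91 on the log2 scale with spike-in scaling (SE 0.15, adjusted p = 1.37e-08, edgeR) and by 0.50 with TMM (adjusted p = 0.000279). Its antisense neighbour ZEB1-AS1, whose exons overlap 4.23% of the ZEB1 exon bases, went from 6.24 to 5.34 CPM. The log2 fold change of ZEB1-AS1 on the spike-in scale was -0.66 (adjusted p = 0.00210, edgeR with filterByExpr). On that scale and filter 44.1% of all genes fell. SNAI2 and ZEB1 passed both criteria in all 6 fits that left out 1 library.

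ZEB2, the paralogue of ZEB1 (ENSG00000169554, GRCh38 chromosome 2, 144364364 to 144524583, minus strand), did not follow it. Normalized counts of ZEB2 were 300.7, 291.6 and 264.8 across the controls and 362.0, 200.1 and 322.1 across the shDYRK1A libraries. The libraries shDYRK1A 1A and 1C lay above all shControl libraries and shDYRK1A 1B lay below them all. The log2 fold change was 0.05 ± 0.18 (SE, adjusted p = 0.849, edgeR), and 0.26 without shDYRK1A 1B (adjusted p = 0.285). Under TMM scaling ZEB2 rose by 0.41 on the log2 scale (adjusted p = 0.0205). That call held without shControl 1A, shControl 1C or shDYRK1A 1B (adjusted p = 0.0492, 0.0439 and 9.28e-05) and was lost without each of the other 3 libraries (0.0600, 0.111 and 0.107).

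TWIST1 (ENSG00000122691, GRCh38 chromosome 7, 19020991 to 19117672, minus strand) codes for a basic helix-loop-helix factor of the mesoderm. Normalized counts of TWIST1 were 812.0, 896.5 and 664.0 across the controls and 809.1, 701.4 and 718.2 across the shDYRK1A libraries, so the groups overlapped. On the spike-in scale the log2 fold change was -0.09 ± 0.16 (SE, adjusted p = 0.610, edgeR). Under TMM scaling TWIST1 rose by 0.32 on the log2 scale (adjusted p = 0.00202), and this call held in all 6 fits that left out 1 library. Per human count it went from 17.4 ± 1.18 CPM (SD, n = 3) to 22.0 ± 0.449 CPM, with every shDYRK1A library above every shControl library.

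SOX9 (ENSG00000125398, GRCh38 chromosome 17, 72121020 to 72126420, plus strand), an HMG-box factor of glial and cartilage progenitors, was the only SOX member of the list with detectable RNA. Normalized counts of SOX9 were 2186, 2171 and 1788 across the controls and 1352, 1052 and 1261 across the shDYRK1A libraries. The groups were apart, and SOX9 fell by 0.75 on the log2 scale (SE 0.15, adjusted p = 4.11e-06, edgeR). Under TMM scaling SOX9 fell by 0.34 (adjusted p = 0.000230). Without shControl 1A or shDYRK1A 1B the spike-in value was -0.696 and -0.648, short of the fold threshold. In shControl the 3 libraries differed little per human count (45.1 ± 0.501 CPM, SD, n = 3), and in shDYRK1A they stood at 36.1 ± 2.19 CPM.

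CD44 (ENSG00000026508, GRCh38 chromosome 11, 35138870 to 35232402, plus strand) codes for the main receptor of hyaluronan. Normalized counts of CD44 were 74032, 66999 and 58017 across the controls and 58025, 48106 and 53013 across the shDYRK1A libraries. The highest shDYRK1A library, 1A, lay just above the lowest shControl library, 1C. CD44 fell by 0.32 on the log2 scale with spike-in scaling (SE 0.13, adjusted p = 0.0181, edgeR), whereas with TMM the sign turned, at 0.082 and an adjusted p of 0.165. The spike-in call was lost without shControl 1A, shControl 1B, shDYRK1A 1B or shDYRK1A 1C, with adjusted p values of 0.167, 0.0767, 0.136 and 0.0883. Per human count, CD44 took 1462 ± 70.8 CPM (SD, n = 3) in shControl and 1572 ± 27.4 CPM in shDYRK1A, with each shDYRK1A library above each shControl library.

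CHI3L1 was the 1 member that rose on the spike-in scale. The gene (ENSG00000133048, GRCh38 chromosome 1, 203178931 to 203186749, minus strand) codes for a secreted glycoprotein that binds chitin without cleaving it and is released by reactive astrocytes and mesenchymal glioblastoma cells. Normalized counts of CHI3L1 were 170.4, 227.0 and 191.8 across the controls and 507.6, 410.4 and 448.9 across the shDYRK1A libraries. Each shDYRK1A library lay far above the highest control. The fold was 2.32 (log2 fold change 1.21 ± 0.18, SE, adjusted p = 5.77e-10, edgeR), and 85 of the 17623 genes tested had a higher one. Under TMM scaling CHI3L1 rose by 1.58 on the log2 scale (adjusted p = 8.61e-09), where 4.05% of the genes were called higher. With 1 library left out the spike-in value ranged from 1.12 to 1.33 and the TMM value from 1.45 to 1.65, and the adjusted p stayed below 0.05 in each of these 12 fits.

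Promoter sequence was read for the members from RefSeq (GRCh38.p14), as windows of 300 bases that run from 250 bases before the start site to 50 after it. Windows were found for 7 of the 10 members, not for SOX9, SNAI2 or TWIST1. The palindromic promoter element that the study ties to DYRK1A, searched as an exact match on both strands, was in none of these windows and in 0.469% of the 27305 genes with a window. Further motifs were chosen after the expression values were seen and searched on both strands. The E-box core CAGGTG, which ZEB and SNAI factors can bind, was in the windows of 20.6% of genes. The core of the box bound by TBP, searched as TATAAA, was in 12%. The AP-1 core TGACTCA was in 4.92%. The CHI3L1 window had CAGGTG at -209 and the TBP box at -27 from the start site, with no overlap between them. ZEB1 had the E-box core in 2 of its 7 windows, whereas the shares over all genes used 1 window per gene. None of the motifs was in the windows of VIM, CD44, NES, ZEB2 or SOX2. For each of these genes only 1 window was read, so any other start sites were not searched. The windows of CHI3L1, which rose, and of VIM, the most abundant member and one that fell, are printed 5′ to 3′ on the strand of the gene, with the matches in capitals.
CHI3L1 (chr1:203186655-203186954, minus strand): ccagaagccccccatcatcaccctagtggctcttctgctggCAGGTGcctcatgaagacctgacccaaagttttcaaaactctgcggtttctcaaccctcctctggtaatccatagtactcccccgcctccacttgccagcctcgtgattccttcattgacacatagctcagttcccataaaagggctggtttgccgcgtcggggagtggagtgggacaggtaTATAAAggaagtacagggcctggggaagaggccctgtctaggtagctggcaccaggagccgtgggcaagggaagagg
VIM (chr10:17227991-17228290, plus strand): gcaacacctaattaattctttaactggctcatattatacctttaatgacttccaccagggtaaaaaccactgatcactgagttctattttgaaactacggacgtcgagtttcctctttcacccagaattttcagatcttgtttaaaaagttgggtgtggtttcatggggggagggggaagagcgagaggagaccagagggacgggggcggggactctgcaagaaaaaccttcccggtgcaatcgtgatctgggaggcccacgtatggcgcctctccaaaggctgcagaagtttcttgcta
The CHI3L1 window had 7 CG pairs and 56.0% G or C, and the VIM window 10 CG pairs and 48.0%. The medians over all windows were 14 and 58.3%. A match of letters is a description of the window only, and binding was not measured here.

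Side by side, the scales differ in which members pass the test. VIM, SOX9, ZEB1 and SNAI2 fell with both, and CHI3L1 rose with both. CD44 and TWIST1 changed sign between the scales. NES and ZEB2 kept their sign but passed the test on only 1 scale, NES with the spike-in and ZEB2 with TMM. With TMM, 4 of the 6 members past the main filter fell and 1, TWIST1, rose, where 28.6% of all genes fell and 27.3% rose. Of the 3 members tested with the lower filter, 0 fell and 2 rose (CHI3L1 and ZEB2), against 20.9% and 18.8% of the 17623 genes. CPM, which use no size factor, gave 5 members whose shDYRK1A libraries were all lower (VIM, NES, SOX9, ZEB1 and SNAI2) and 3 whose libraries were all higher (CD44, CHI3L1 and TWIST1), against 21.4% and 28.9% of genes. On the spike-in scale the corresponding counts were 5 lower and 1 higher, CHI3L1, against 48.2% and 3.56% of genes. For each separated member the two-sided exact permutation test on CPM gave p = 0.1, the smallest value that 3 libraries against 3 allow.

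**Figure D3:**
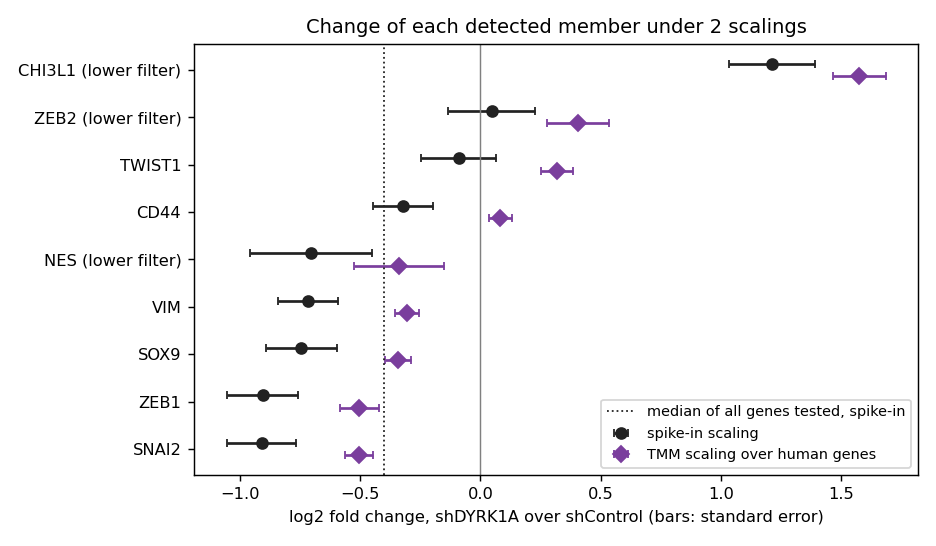
Log2 fold change of each detected member, shDYRK1A over shControl, with bars for the standard error, under spike-in scaling (circles) and TMM scaling over the human genes (diamonds), with the median of all genes under spike-in scaling as a dotted line. TMM moves all members up by 0.36 to 0.41, which takes CD44 and TWIST1 past 0 and lets NES and VIM change places. The members marked as lower filter were tested with filterByExpr.

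The ratio of 2 members within a library cancels the size factor, and 4 pairs were tested in this way. The controls held 7.80, 8.81 and 7.76 ZEB1 reads per ZEB2 read and the shDYRK1A libraries 3.63, 5.00 and 4.37. The groups were far apart, and the difference in mean log2 ratio was -0.92 (exact permutation test, p = 0.1, adjusted over 4 pairs 0.133). SNAI2 had 3.70, 3.74 and 3.82 reads per TWIST1 read across the controls and 2.18, 2.09 and 2.10 with DYRK1A silenced. This ratio varied least within a group, with an SD of 0.0232 and 0.0332 on the log2 scale, and it differed by -0.82 (exact permutation test, p = 0.1, adjusted 0.133). Both pairs set an EMT factor that fell on the spike-in scale beside one that did not, and in both every shDYRK1A library lay below every control. A lower ratio follows from the fold changes given above. All ratios tested here use the same counts as those fold changes and are no separate support for them.

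CD44 had 0.792, 0.709 and 0.766 reads per VIM read across the controls and 1.03, 0.945 and 0.991 with DYRK1A silenced. The difference in mean log2 ratio was 0.39 (exact permutation test, p = 0.1, adjusted 0.133), with every shDYRK1A library above every control. VIM and NES, both filament genes, had 1024, 979.3 and 959.9 VIM reads per NES read in shControl and 847.5, 931.0 and 1250 in shDYRK1A, and these groups overlapped (exact permutation test, p = 1.0). The ratio of SOX9 to SOX2 was not tested, because SOX2 had fewer than 10 reads in each library.

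**Figure D4:**
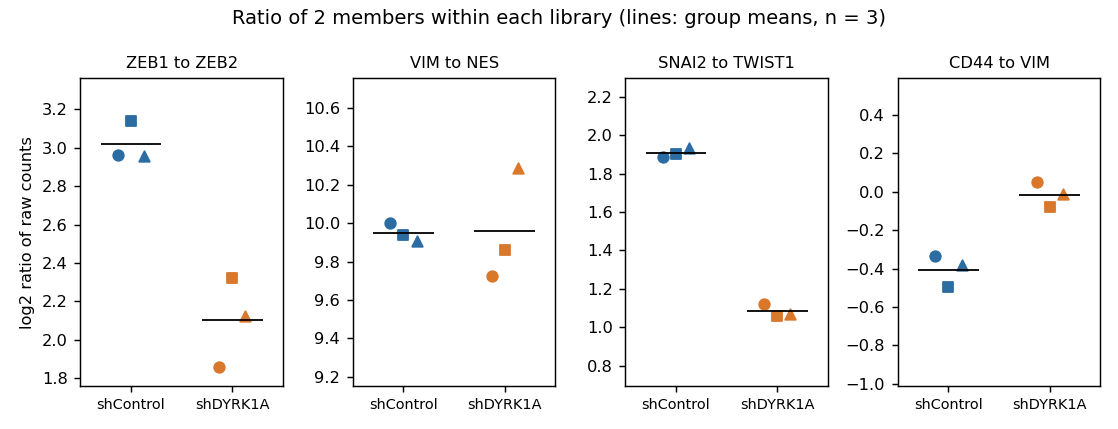
Log2 ratio of raw counts for 4 pairs of members in each library (circle 1A, square 1B, triangle 1C), with lines at the group means and the same span on each vertical axis. The shDYRK1A libraries lie lower for ZEB1 to ZEB2 and SNAI2 to TWIST1, higher for CD44 to VIM, and on both sides of shControl for VIM to NES.

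The genes around the members were counted from lists drawn up for each role, and each count stands beside the 63.4% of the 9697 genes that fell and the 1.08% that rose. Among 14 further EMT factors and cofactors past the main filter, 8 fell, 1 rose and 5 did not pass the test, a share of falls a little below that of all genes, with a median of -0.37 beside -0.40 over all genes. SIRT1, a deacetylase, fell by 1.12 and CTBP2, a corepressor that works with ZEB proteins, by 0.75 on the log2 scale (adjusted p = 3.10e-10 and 8.07e-07, edgeR). The HLH inhibitor ID2 rose by 0.38 (adjusted p = 0.0359). Its relatives ID1 (0.21, adjusted p = 0.154) and ID3 (0.27, adjusted p = 0.0693) did not pass in the same edgeR test. Under TMM scaling ID1, ID2 and ID3 rose by 0.62, 0.78 and 0.69 (adjusted p = 0.000269, 1.87e-05 and 2.41e-05, edgeR). Among 21 mesenchymal effectors 16 fell, 0 rose and 5 did not pass, a share above that of all genes, with a median of -0.49. The largest falls were those of the caveolar protein CAV1 (-1.69 ± 0.14), the tropomyosin TPM1 (-0.94 ± 0.13) and the surface glycoprotein THY1 (-0.86 ± 0.13). Under TMM the medians of these 2 lists were 0.03 and -0.09, and 4 and 8 of their genes fell while 4 and 5 rose, where 28.6% of all genes fell and 27.3% rose.

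Of 17 regulators and markers of the mesenchymal subtype, 9 fell, 1 rose and 7 did not pass, a smaller share of falls than the 63.4% of all genes. The retinaldehyde dehydrogenase ALDH1A3 was the 1 called gene (-0.71 ± 0.15, adjusted p = 1.54e-05, edgeR). All 7 tested stemness markers passed the test, 6 of them lower and 1 higher, a larger share of falls than over all genes. L1CAM, an adhesion molecule of glioma stem cells, fell by 1.51 and the histone methyltransferase EZH2 by 0.76 on the log2 scale, whereas SOX4 rose by 0.41 (adjusted p = 1.70e-22, 7.26e-07 and 0.0144). The remaining 17 of 24 listed stemness markers were under the filter, and 11 of the 24 had a mean below 1 CPM. Of the SOX family beyond the members, 4 of 17 genes were tested: SOX13 (-0.88) and SOX11 (-0.68) fell, SOX4 rose and SOX12 (-0.18, adjusted p = 0.240) did not pass. The medians of these 3 lists were -0.36, -0.56 and -0.43 with spike-in scaling and 0.05, -0.16 and -0.03 with TMM.

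Around CD44, 10 of 15 genes of the hyaluronan system fell, 0 rose and 5 did not pass, with a median of -0.43 (-0.03 with TMM). Both the share and the median were near those of all genes (63.4% and -0.40). The hyaluronidase TMEM2 fell by 1.03, the hyaluronan-binding proteoglycan VCAN by 0.84 and the receptor HMMR by 0.82 on the log2 scale, beside 0.32 for CD44. Around VIM and NES, 8 of 10 filament and linker genes fell, 0 rose and 2 did not pass, against 63.4% and 1.08% of all genes, with a median of -0.56 (-0.15 with TMM). LMNB1 (lamin B1) fell by 1.07, FLNA (filamin A, a vimentin-binding actin crosslinker) by 0.84 and the spectraplakin MACF1 by 0.79. Around CHI3L1, 3 of 7 tested genes of its receptors and of the injury response of astrocytes fell, a smaller share than the 63.4% of all genes, 1 rose and 3 did not pass, with a median of -0.16 (0.25 with TMM). Complement C3 went from 43.9 to 138 CPM and rose by 1.23 on the log2 scale (SE 0.14, adjusted p = 6.48e-16, edgeR), close to CHI3L1, and the cytokine receptor LIFR fell by 1.42. Other chitinase family genes were nearly silent, with 38 reads of CHI3L2, 2 of CHIA and 0 of CHIT1 over the 6 libraries, and so was IL13RA2, a receptor of CHI3L1, with 20.

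**Figure D5:**
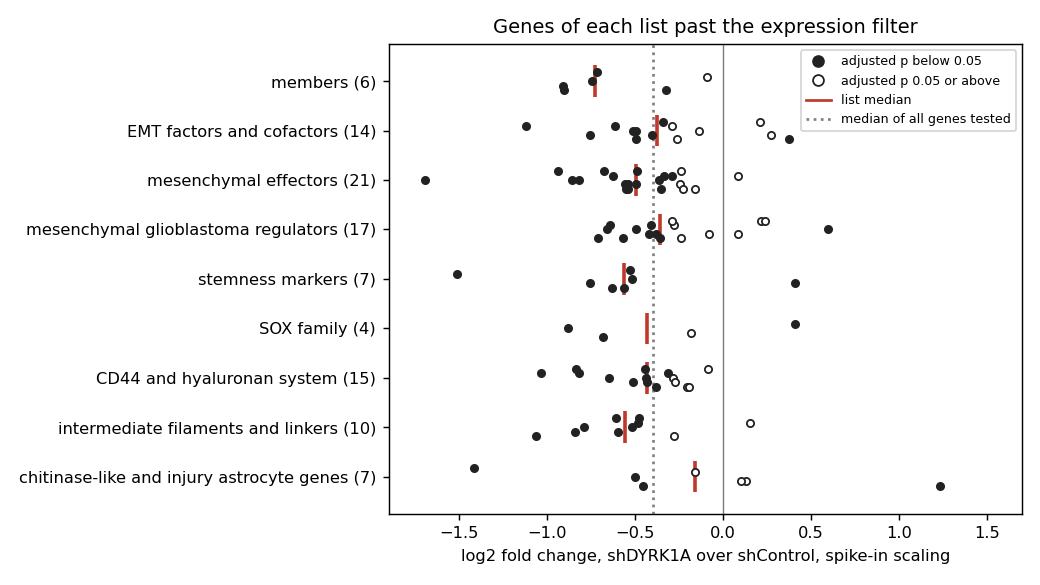
Log2 fold change under spike-in scaling of the genes past the main filter in each list, with the number of genes in brackets, filled points for adjusted p below 0.05, red lines at the list medians and a dotted line at the median of all genes. Most points of every list lie below 0, and C3 (1.23) and CASP1 (0.59) are the highest points drawn. CHI3L1, below this filter, and the cell type marker lists are not drawn.

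Only 3 of 20 epithelial genes and 3 of 12 astrocyte and glial markers passed the main filter. Of 20 epithelial genes 15 had a mean below 1 CPM, CDH1 had 2 reads in all, and the most counted were KRT18 (179 CPM in shControl and 169 in shDYRK1A) and TJP1 (82.0 and 84.6). Both fell on the spike-in scale (-0.52 and -0.38, adjusted p = 0.000442 and 0.0136, edgeR) and neither passed under TMM. The summed level of the list was 277.7 to 294.2 CPM in shControl and 286.1 to 300.3 CPM in shDYRK1A. Of 12 astrocyte markers S100B and AQP4 had 0 reads, and the most counted were GLUL, which fell by 0.81, and GJA1, with a log2 fold change of 0.13 (adjusted p = 0.384). Their summed level was 330.3 to 358.3 and 343.9 to 380.2 CPM. The 12 neuronal markers summed to 50.3 to 52.9 CPM in shControl and 24.3 to 30.5 CPM in shDYRK1A. MAP2, a microtubule protein, fell by 1.64 (adjusted p = 5.38e-23) and made up most of that sum with SNAP25, while RBFOX3 had 1 read and STMN2 had 0. The part of these genes in the results on the members was not tested.

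Oligodendrocyte lineage markers summed to at most 11.8 CPM, immune markers to at most 7.69 and endothelial markers to at most 3.29 CPM in any library, and none of their genes passed the main filter. The most counted of them were PDGFRA and NKX2-2, ITGAM and CSF1R, and TEK and PECAM1. AIF1, CD3E and KDR had 0 reads. The 8 fibroblast and pericyte markers summed to 1352 to 1493 CPM in shControl and 1344 to 1404 CPM in shDYRK1A, nearly all of it COL1A2 and PDGFRB. Of the 4 tested, PDGFRB (-0.72) and COL1A2 (-0.51) fell, COL3A1 rose by 0.62 (adjusted p = 8.78e-05, edgeR) and COL1A1 (-0.31, adjusted p = 0.0760) did not pass. DCN, another of the 8 markers, had 8 reads over the 6 libraries.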

How the data were processed

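RNA-seq was performed on 6 T98G libraries made with a stranded mRNA kit. The authors deposited raw gene counts per library (STAR and hg38 in the submitters' notes; versions not given in the sources used here). The authors also deposited normalized signal, which is the counts divided by 1 size factor per library that their methods derive from fly reads. Their DESeq2 table, with fold changes and p-values, was not used. Fly counts were not analysed here, so the deposited size factors were recovered as raw over normalized counts. Summary lines (18.9 to 25.0% of reads) were kept out.

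Genes with a mean above 10 normalized CPM (9697) were tested with edgeR 4.0.16 (glmQLFit, glmQLFTest) under R 4.3.3. Members below that filter were tested within filterByExpr. Values were adjusted by Benjamini-Hochberg over all genes fitted. The standard error is the fold change divided by the root of F. Ratios and CPM were compared by exact permutation tests (scipy 1.17.1). On simulated counts for the shDYRK1A comparison (9697 genes), 100% of genes changed by 1 or 1.5 on the log2 scale were recovered. Smaller changes, such as those of the members past the main filter, were not simulated, and neither was error in the size factors.

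Alternatives were TMM, median of ratios, DESeq2 1.42.0, other filters and thresholds, a replicate block, each library left out, the mitochondrial genome left out of the total, a count of 1 added to ratios, and the longest transcript as length. TMM with a block or a library left out, and the alternatives combined with filterByExpr, were chosen after seeing the data. Exon lengths came from GENCODE v29. The members and lists were chosen with earlier results of these data known. Named genes are the members, DYRK1A, up to 3 of the lowest and of the highest called genes of each list, the 2 most counted genes of each cell type list, and antisense transcripts. Other genes were named after their values were seen.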

Additional observations from a re-analysis of the deposited data

How the results depend on the processing

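The number of members called lower went from 4 to 0 under TMM, to 0 under median of ratios and to 0 with a log2 fold change beyond 1, and from 2 to 4 with 1 library left out, with 2 called without shControl 1A or without shDYRK1A 1B. The number called higher went from 0 to 1, CHI3L1, with filterByExpr or with no filter beyond 1 count. VIM, SOX9, ZEB1, SNAI2 and CHI3L1 held their direction and passed the adjusted p of 0.05 under each alternative run. CD44 changed sign under TMM (0.082), median of ratios (0.086), TMM with a replicate block (0.084) and TMM without 1 library (0.052 to 0.12), while spike-in scaling without 1 library gave -0.41 to -0.24. TWIST1 changed sign under TMM (0.32), median of ratios (0.32), TMM with a replicate block (0.32), TMM without 1 library (0.28 to 0.38) and spike-in scaling without shControl 1B (0.011, with -0.20 to 0.011 over the 6 libraries left out). ZEB2 changed sign without shControl 1C (-0.0064), shDYRK1A 1A (-0.13) or shDYRK1A 1C (-0.023), and TMM without 1 library gave 0.31 to 0.56. The ratio of VIM to NES ranged from -0.15 to 0.13 on the log2 scale without 1 library, with -0.01 without shControl 1C and -0.15 without shDYRK1A 1C. The cause of these changes was not tested beyond the change of scale or of libraries itself.

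The labels do not say whether libraries of the same letter belong together. Deviations from the group means correlated at 0.151, 0.0728 and 0.128 between same-letter libraries and at -0.0937 to -0.0143 between the others. Each library correlated best with its own letter, and the main fit did not pair the libraries. With the replicate block 4 members were again called lower, and genes past an adjusted p of 0.05 went from 6250 to 6009. Genes called lower were 1386 under spike-in scaling and 187 under TMM, and those called higher 27 and 121. The length used for levels left 8 of 10 members at the same place in the shControl order. With 3 libraries a group, exact tests cannot go below 0.1, and at 52 to 85 reads a library NES could not be placed firmly.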

Other observations

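Genes near the members that lay under the main filter were chosen for this paragraph after their values were seen, and filterByExpr was used to test them. POSTN, which codes for the matrix protein periostin and belongs to the mesenchymal effectors, went from 3.41 to 12 CPM and rose by 1.39 on the log2 scale (adjusted p = 6.70e-12, edgeR). JUP, which codes for plakoglobin of cell junctions, went from 1.51 to 4.40 CPM and rose by 1.13 (adjusted p = 1.08e-05). SPP1, a ligand of CD44, fell by 1.02 (adjusted p = 1.39e-07). FAP, a fibroblast protease, fell by 1.47 (adjusted p = 1.10e-13) and NT5E, a mesenchymal stromal marker, by 1.14 (adjusted p = 4.08e-07). With TMM the rises of POSTN and JUP were 1.76 and 1.49 on the log2 scale, and the other 3 genes had values from -1.10 to -0.65.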
